A study of Mus musculus with 10 samples.

Results

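Small nucleolar RNA (snoRNA) and microRNA genes were examined in the input and the m6A immunoprecipitate of mouse embryonic stem cell RNA. They were the gene names that start with Snord, Snora or Mir and a digit, do not end in a point and a number, and had a mean input coverage of at least 5 over the 4 KO and WT inputs. Of 30419 genes, 100 met this rule: 41 of 69 Snord names, 20 of 36 Snora names and 39 of 613 Mir names. The rule used the mean input level over both genotypes, so that mean is a description here, while differences between genotypes and between IP and input were not part of it.

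N6-methyladenosine (m6A) is a methylated base of RNA, and Mettl3 encodes the enzyme that places most of it on messenger RNA. J1 is an established mouse embryonic stem cell line, and per the labels' protocols it was grown without feeder cells. Fragmented RNA was precipitated with an antibody against m6A (IP) and sequenced next to RNA that had not been precipitated (input). The 10 libraries formed 2 pairs of IP and input from Mettl3 KO cells, 2 pairs from Mettl3 WT cells and 1 pair with no genotype in its labels, called the first pair here. Neither the targeted site nor the number of clones behind the KO is given in the labels. Nor do they tell whether the 2 replicates of a genotype were separate cultures, and a p-value here speaks of the variation among libraries, part of which may be technical.

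Coverage was given per exon window, as scaled by the authors, and gene values here are means over a gene's windows. Relative depth was 0.516 and 0.284 of the first input in KO inputs and 0.438 and 0.457 in WT inputs, and 0.0644 and 0.0606 of the first IP in KO IPs and 0.159 and 0.0712 in WT IPs. Mettl3 itself had an input coverage of 3.14 and 3.38 in KO inputs, against 4.79 and 4.67 in WT inputs. Its log2 difference, KO minus WT, was -0.43 (limma adjusted p = 0.00259). The KO inputs thus kept Mettl3 coverage in both libraries, at a lower level, and the altered part of the gene is not given in the labels. All 10 embryonic stem cell markers were covered, with summed levels of 2131 to 2276 in KO inputs and 2823 to 2906 in WT inputs. By limma (adjusted p under 0.05) 1 of these 10 rose and 5 fell in KO inputs, beside 13.0% rising and 13.6% falling among all genes tested. Of 13 markers of differentiated cells 10 had a mean input under 1, and the sums were 8.44 to 8.51 in KO inputs and 6.94 to 7.39 in WT inputs. Of the 4 tested, Acta2, a smooth muscle actin, rose with 3.23 and 3.78 in KO inputs, against 1.17 and 1.03 in WT inputs, and Sox1, a neural factor, fell with 0.539 and 0.365 in KO inputs, against 1.22 and 1.03 in WT inputs. The part of either marker list in the results for snoRNA and microRNA genes was not tested, and in bulk RNA fewer cells of a type and less RNA per cell cannot be told apart.

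Most snoRNAs of mammals are released from introns of host genes, many of which encode ribosomal proteins or noncoding Snhg transcripts. Box C/D snoRNAs, named Snord, guide 2′-O-methylation of ribosomal and small nuclear RNA, and box H/ACA snoRNAs, named Snora, guide pseudouridylation. MicroRNAs are cut from hairpins in longer primary transcripts by Drosha with Dgcr8 and then by Dicer, and in human cells Mettl3 has been reported to mark primary microRNAs for Dgcr8. The cluster that holds miR-294 and miR-295 is the group of microRNAs for which mouse embryonic stem cells are best known.

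Sequences were taken from RefSeq, build GRCm38.p6, in which 33 of the 39 Mir members had a mature microRNA and 30 had a hairpin. The mature 3p arms of the Mir295 cluster, on the plus strand of chromosome 7, and of Mir92-1 and Mir363, on the plus strand of chromosome 14 and the minus strand of chromosome X, are shown so that their seeds, bases 2 to 8 in capitals, can be compared.
miR-291a-3p: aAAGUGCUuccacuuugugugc
miR-294-3p: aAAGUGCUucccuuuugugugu
miR-295-3p: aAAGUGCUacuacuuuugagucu
miR-291b-3p: aAAGUGCAuccauuuuguuugu
miR-293-3p: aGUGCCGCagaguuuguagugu
miR-92a-3p: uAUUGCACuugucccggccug
miR-363-3p: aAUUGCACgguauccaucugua
The seed AAGUGCU was shared by miR-291a-3p, miR-294-3p and miR-295-3p, and AUUGCAC by miR-92a-3p and miR-363-3p, while those of miR-291b-3p and miR-293-3p were not shared with another printed arm. For Mir292, also of the Mir295 cluster, the sequences held a 5p arm only, so its 3p arm is not shown. Mature microRNAs of 21 to 23 bases are not told apart from their precursors by window coverage, so a value given for a Mir gene below is that of its annotated stretch of transcript.

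Mettl3 favours GGAC within its target sites, so hairpins were searched for these letters on the transcribed strand. GGAC stood in 11 of the 30 member hairpins (36.7%) and in 246 of all 1005 hairpins of the table (24.5%), and GGACU, which contains it, in 1 and in 82 (8.16%). The stretches around it are shown for the 3 members that held it among the 5 with a ratio of IP to input above the median gene, and for Mir295, whose GGAC is followed by U. GGAC is in capitals, and each stretch is named with the position of its first G in capitals, counted from the hairpin's 5′ end.
Mir1306 at 48: agagguaauGGACguuggcucu
Mir1306 at 70: gguggugauGGACaguccg
Mir877 at 20: uggcgcaggGGACacaagguag
Mir877 at 48: cgggucuguGGACccuuggaca
Mir877 at 56: uggacccuuGGACauguguccu
Mir703 at 56: gaauguuguGGACcauuuuuuu
Mir295 at 30: cacacuucuGGACuguacauag
Mir1306 and Mir877 lie on the minus strands of chromosomes 16 and 17, and Mir703 on that of chromosome 5. A match describes the letters only and is no measured site.

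The members are short. Of the 100, 3 had 1 window, 69 had 2, 26 had 3 and 2 had 4 or more, among them Mir17hg with 47, the long noncoding host of the Mir17 to Mir92 cluster. Other genes at the same minimum had a median of 53 windows. RefSeq lists 98 members under the same symbol, has Mir5117 only as an older name of Gas5, and does not hold Mir5109. Mir1906-1 and Mir1906-2 had equal values in all 10 libraries, on chromosomes 12 and X, and are 1 measurement. The 618 other names had a median coverage of 0.0318, and 246 of them were at 0 in all 4 inputs. Just inside the minimum lay Snora43 (5.07), Snord42b (5.35), Snora7a (5.59) and Mir5116 (5.61), and just outside Mir3572 (4.59), Mir290 (4.58), Mir5113 (4.56) and Snord7 (4.42).

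Together the members took 0.124 and 0.133% of all window coverage in KO inputs and 0.124 and 0.119% in WT inputs. Their share was 0.0377 and 0.0393% in KO IPs and 0.0380 and 0.0395% in WT IPs, below the input share in every KO and WT pair. The highest input level was that of Mir682, at 983 and 994 in KO inputs, against 805 and 877 in WT inputs. Mir5109 followed, with 434 and 676 in KO inputs, against 517 and 371 in WT inputs. Mir5121, which lies in the ribosomal protein gene Rpl13a, had 366 and 413 in KO inputs, against 372 and 403 in WT inputs. None of these 3 passed the test between genotypes described below, with limma adjusted p between 0.0777 and 0.969. The next in order were Mir703 with 341 and 349 in KO and 302 and 336 in WT, and Snord49a, a box C/D snoRNA, with 363 and 293 in KO and 364 and 275 in WT. Mir684-1 had 270 and 266 in KO and 218 and 242 in WT, Mir3091, in Rps21, had 170 and 226 in KO and 169 and 156 in WT, and Snord34, a box C/D snoRNA of Rpl13a, had 167 and 196 in KO and 176 and 163 in WT. Some neighbours in this order, such as Mir703 and Snord49a, overlapped between libraries, and others did not, among them Mir682 and Mir5109, Mir5121 and Mir703, and Snord49a and Mir684-1.

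In the IP, snoRNA and microRNA genes were mostly depleted, in KO as in WT cells. On the scale of log2((IP + 1)/(input + 1)), less the median of all genes in the same pair, 91 of the 100 members lay below the median gene and 5 above it (limma, adjusted p under 0.05, mean of the 4 KO and WT pairs). Among all 6121 genes at the minimum 42.7% lay below and 42.6% above, 85.3% in either direction. The median of the members was -2.35, against -0.03 over all genes. All 20 Snora members and 40 of 41 Snord members were below, and 31 of 39 Mir members. By pair, the median of the members was -2.62 and -2.25 in KO and -2.21 and -2.80 in WT, and -0.98 in the first pair, where 87 of the 100 lay under the median gene. In all 5 pairs 81 members were below it, and Mir703, Mir5114 and Mir1306 were above it in all 5. With the median window of each gene in place of the mean, 63 members were below and 13 above. Of all 6121 genes, 1905 were below and 1915 above. For the 3 members of 1 window and the 69 of 2, the median window equals the mean. Their own IP and input values were thus unchanged, and only the subtracted library median and the fitted spread differed.

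**Figure D1:**
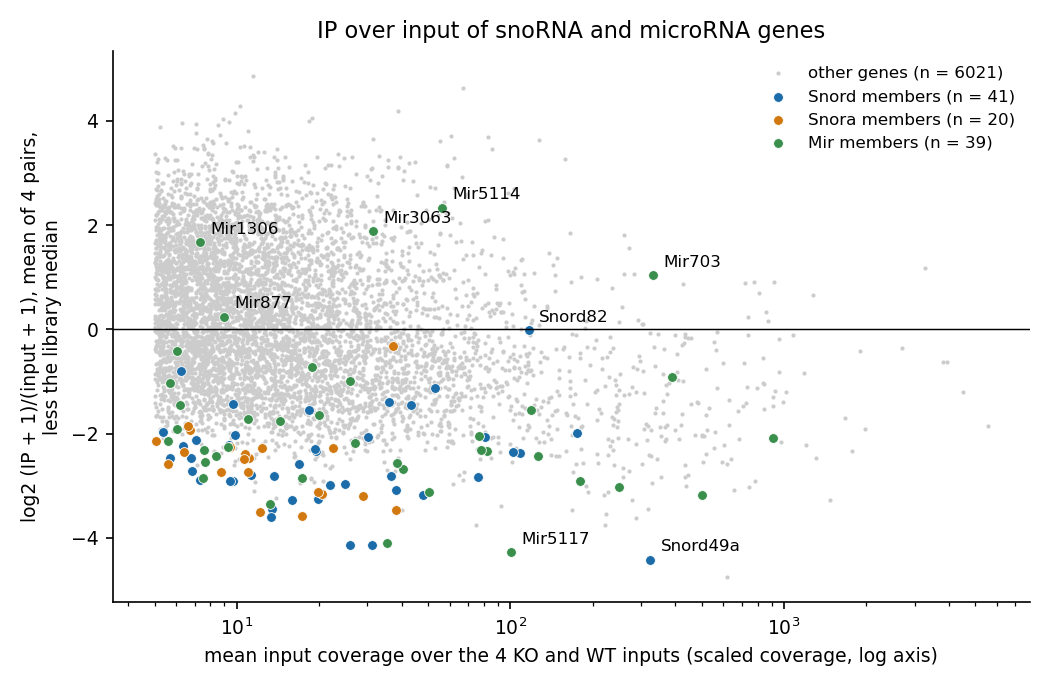
Each point is a gene, with its mean input coverage over the 4 KO and WT inputs (x, log axis) and its log2 IP over input, the mean of the 4 KO and WT pairs less the library median (y), for Snord, Snora and Mir members and for other genes in grey. The members form a band around -2.35, and Mir5114, Mir3063, Mir1306 and Mir703 stand above 0.

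Short genes that are no members were set beside them. Of 37 other genes with 1 to 3 windows, 27 lay below the median gene (73.0%), with a median of -1.54. In the first pair the median was -0.98 in members, with 87 of 100 below the median gene. These other short genes had a median of 0.03 there, with 17 of 37 below. Their median coverage was only 0.516 in the first input and 0.223 in the first IP, against 9.72 and 3.23 in members. At such coverage the pseudocount of 1 holds a ratio near 0, so the first pair cannot set members apart from other short genes. Low IP coverage and the pseudocount limit how far a ratio can fall: IP coverage was 0 in both KO libraries for 16 members and in both WT libraries for none. By library, 33 and 21 members were at 0 in KO IPs against 1 and 27 in WT IPs. The deepest of these 4 IPs, WT replicate 1, was the one with a single member at 0. Log2 ratios of members at 0 depend on the pseudocount and are no bounds.

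**Figure D2:**
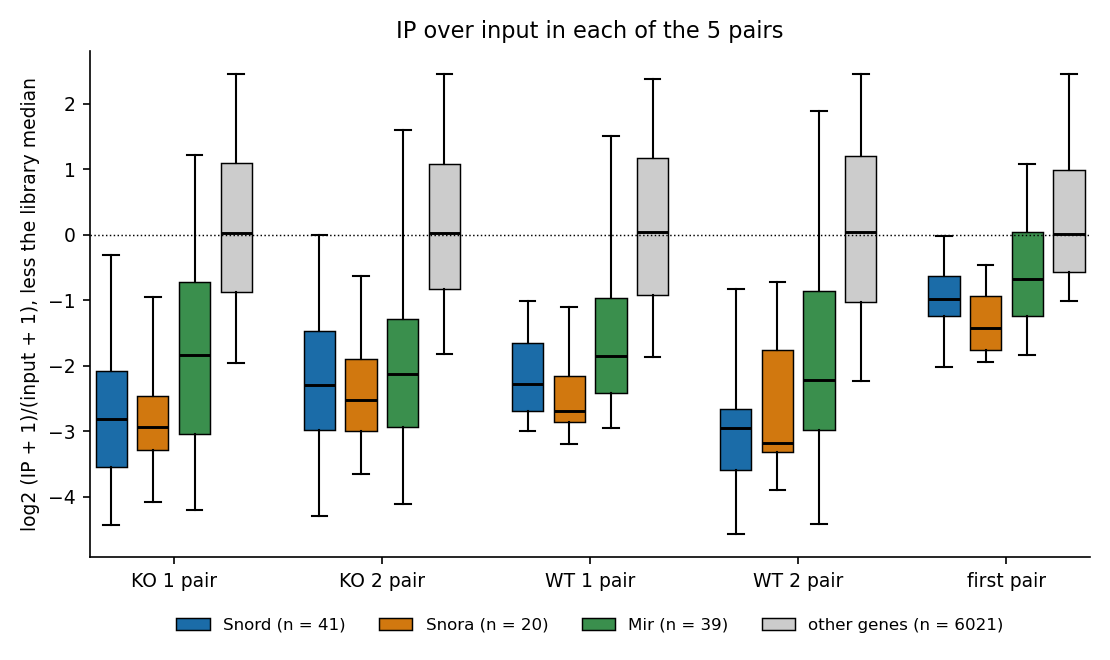
Boxes give the quartiles and median of log2 IP over input, less the library median, in each of the 5 pairs (x) for Snord, Snora and Mir members and for other genes, with whiskers from the 5th to the 95th percentile. Member medians lie below 0 in all 5 pairs, and nearest to 0 in the first pair.

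The box C/D snoRNA Snord49a had the lowest ratio of all members. Its IP coverage was 14.0 and 11.6 in KO IPs and 31.3 and 5.68 in WT IPs, beside inputs of 363 and 293 in KO and 364 and 275 in WT, a log2 ratio of -4.42 (SE 0.52, limma adjusted p = 6.01e-05). Snord49a lies in 2410006H16Rik, a noncoding host, with Snord49b and Snord65. Snord65 had IP coverage of 4.32 and 3.69 in KO IPs and 4.6 and 1.52 in WT IPs and inputs of 41.0 and 37.2 in KO and 38.0 and 36 in WT, and Snord49b had IP coverage of 1.38 and 19.0 in KO IPs and 4.01 and 1.66 in WT IPs and inputs of 43.0 and 34.2 in KO and 36.4 and 33.1 in WT. In all 3 every IP value was below every input value, and in Snord49b KO replicate 2 stood apart from the other IPs.

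Snord100, from Rps12, had IP coverage of 0.0817 and 0.0858 in KO IPs and 2.43 and 0.0263 in WT IPs against inputs of 25.3 and 29.9 in KO and 24.1 and 24 in WT, a log2 ratio of -4.15. Snord12, from Zfas1, had 0 and 0.958 in KO IPs and 3.38 and 0 in WT IPs, and inputs of 33.4 and 31.1 in KO and 32.5 and 27.4 in WT, a log2 ratio of -4.14. Snord16a, from Rpl4, had 0 and 0 in KO IPs and 0.533 and 0 in WT IPs, with inputs of 12.2 and 12.1 in KO and 14.5 and 14.3 in WT. IP values of all 3 stayed under every input value in KO and WT. Mir5117, listed by RefSeq under Gas5, stood at 2.00 and 7.99 in KO IPs and 8.91 and 1.16 in WT IPs with inputs of 98.0 and 115 in KO and 103 and 84.1 in WT, a log2 ratio of -4.28. Mir291b (-4.10), described with its cluster below, and Snord16a (-3.59) complete the 6 lowest log2 ratios.

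Mir5114, in the lipid desaturase gene Scd2, had the highest ratio. Its IP coverage was 195 and 183 in KO IPs and 418 and 367 in WT IPs, beside inputs of 60.3 and 55.3 in KO and 53.6 and 56.2 in WT, and 894 and 133 in the first IP and input. The log2 ratio was 2.33 (SE 0.07, limma adjusted p = 2.23e-08), and every IP value was above every input value. Mir3063, in Igf2bp1, which encodes an RNA-binding protein, had IP coverage of 133 and 85.1 in KO IPs and 110 and 127 in WT IPs and inputs of 31.1 and 25.3 in KO and 35.5 and 34.3 in WT, a log2 ratio of 1.89 (adjusted p = 2.62e-07). In the first pair Mir3063 had 78.3 in the IP and 104 in the input, so there it lay at -0.12.

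Mir1306 lies in Dgcr8, the gene of the hairpin-binding partner of Drosha. It had IP coverage of 13.6 and 26.7 in KO IPs and 20.4 and 42.8 in WT IPs, beside inputs of 8.49 and 9.08 in KO and 6.49 and 5.35 in WT, a log2 ratio of 1.68 (SE 0.21, limma adjusted p = 7.42e-05), higher than its input in all 4 pairs. Mir703 had 704 and 526 in KO IPs and 546 and 844 in WT IPs, with inputs of 341 and 349 in KO and 302 and 336 in WT, a log2 ratio of 1.04. Mir877, in Abcf1, was near the median gene at 0.25 (adjusted p = 0.0376), with IP coverage of 12.7 and 6.66 in KO IPs and 10.4 and 11.0 in WT IPs and inputs of 11.0 and 6.07 in KO and 9.25 and 9.42 in WT. With the highest window of each gene in place of the mean, Mir703 was at -1.21 and Mir877 at -1.52. With the median window both stayed above the median gene. Mir877 has 2 windows, so its median window equals its mean, and staying above is no further evidence for it. Mir877 missed the threshold without either WT replicate (limma adjusted p = 0.153 and 0.23). GGAC stood in 3 of these 5 hairpins, as shown above, and was not found in those of Mir5114 and Mir3063.

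Outside both groups were Snord82, Mir1981 and the 2 equal Mir1906 entries, which missed the threshold. Snord82, in the nucleolin gene Ncl, had IP coverage of 90.3 and 151 in KO IPs and 96.8 and 107 in WT IPs and inputs of 127 and 117 in KO and 106 and 116 in WT, a log2 ratio of -0.01 (SE 0.14, limma adjusted p = 0.953). The highest Snora member, Snora31 in Tpt1, lay at -0.32.

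Host transcripts were compared with the members inside them. A host was found for 90 members, by position except for Mir5117, which was assigned to Gas5 as an older name of it. Of the 90, 27 were assigned to ribosomal protein genes, 28 to noncoding transcripts and 35 to other coding genes. In 87 pairs of member and host, with 60 hosts, both ratios were measured, and the member's ratio was the lower in 78: 34 of 39 Snord, 19 of 20 Snora and 25 of 28 Mir members. The median was -2.36 in members and -1.39 in the same hosts. Member inputs were lower than the host's in 76 of the 87. By kind of host, the median member ratio was -2.48 in ribosomal protein genes, -2.70 in noncoding hosts and -2.07 in other coding genes. All 5 members above the median gene were assigned to other coding genes. For Mir703 that host, Cfap299 (listed as 1700007G11Rik), had a mean input of 0.0525, against 332 for Mir703. Dusp19, the host of Mir684-1, had 3.25, against 249 for Mir684-1. Neither host had a fitted ratio, so both members are outside the 87 pairs. All 22 Mir members with a known strand were on the strand of their host.

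**Figure D3:**
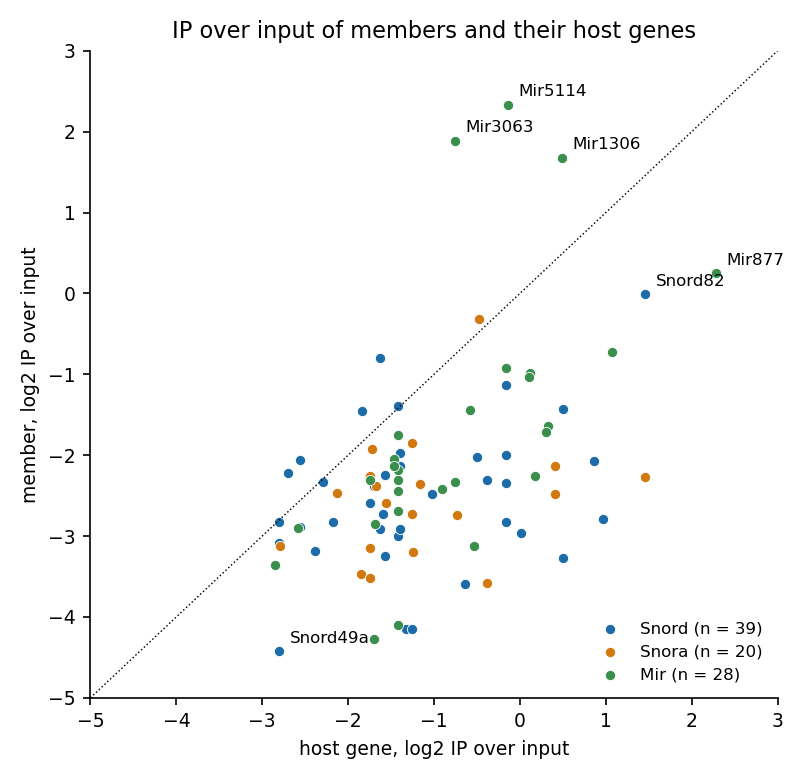
Each point is a member with its host gene's log2 IP over input (x) and its own (y), both the mean of the 4 KO and WT pairs less the library median, and the dotted line marks equal values. Most points lie under the line (78 of 87), and Mir5114, Mir3063 and Mir1306 lie far above it.

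Where a member's windows lie within a host exon, both entries can hold the same coverage. Each member window was matched to the host window with the closest coverage over all 10 libraries, and positions were not used. A member was said to follow its host when its windows matched consecutive host windows, in either order, within a mean absolute log2 difference of 0.5. This measure was chosen after seeing the data. Of members with a host and at least 2 windows, 13 of 30 Mir, 2 of 37 Snord and 1 of 20 Snora did so. Among the 13 is Mir3077, whose windows 1 and 2 matched windows 3 and 2 of exon 2 of Sap18. That order is reversed although both lie on the same strand, so this match need not be a shared stretch. Mir1306 followed windows 12 and 13 of exon 13 of Dgcr8, numbered as in the files, with mean differences of 0.117 and 0.0583. Those 2 windows had mean coverage of 12.2 and 24.8 in KO IPs and 19.5 and 40.3 in WT IPs, against inputs of 8.54 and 8.58 in KO and 6.26 and 5.37 in WT. The other 89 windows of Dgcr8 had 13.9 and 11.8 in KO IPs and 17.4 and 14.3 in WT IPs, with inputs of 10.8 and 10.5 in KO and 10.5 and 11.2 in WT. The Mir1306 entry thus repeats the coverage of 2 windows inside a Dgcr8 exon. KO and WT IP coverage was higher on either side of them in that exon. At window 10 it was 62.4 and 80.8 in KO and 65.7 and 73.4 in WT. At window 16 it was 195 and 71.6 in KO and 127 and 91.7 in WT. The first IP had 139 at window 10 and 55.3 at window 16, against 98.3 over the 2 matched windows. Mir5114 followed windows 4 and 5 of exon 6 of Scd2 less closely, with mean differences of 0.375 and 0.411. Its own IP coverage, 195 and 183 in KO and 418 and 367 in WT, was above that of these windows in every KO and WT IP. The entry thus does not simply repeat these windows. IP coverage there was 115 and 122 in KO and 268 and 234 in WT, against 53.4 and 46.2 in KO and 70.0 and 77.0 in WT over the other 110 windows of Scd2, which lay at -0.14 as a whole gene (adjusted p = 0.23). The highest KO and WT IP coverage of Scd2 lay in the next windows of that exon, 6 and 7, outside the match. It was 595 and 504 in KO and 1073 and 1100 in WT at window 6. At window 7 it was 831 and 605 in KO and 1002 and 1364 in WT. Whether the Mir5114 entry reaches these windows was not tested.

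The Mir295 cluster lies in D7Ertd143e, and 6 of its microRNAs were members. Its entries followed D7Ertd143e windows 4 and 5 (Mir291a), 9 and 10 (Mir292), 15 and 16 (Mir291b), 32 and 33 (Mir293), 38 and 39 (Mir294), and 41 and 42 (Mir295). Input coverage was far higher at the last of these windows than at the first, with 9.76 and 5.66 in KO and 7.24 and 3.64 in WT inputs at window 4, and 186 and 170 in KO and 164 and 184 in WT inputs at window 42. IP coverage did not follow this course: at window 18, between Mir291b and Mir293, it was 52 and 49.2 in KO and 15.9 and 14.9 in WT, and at window 43, next to Mir295, it was 38.4 and 49.7 in KO and 113 and 115 in WT. The KO IPs were thus above the WT IPs at window 18 and below them at window 43, while inputs at window 43 were 191 and 171 in KO and 161 and 189 in WT. These 2 windows were picked after their values were seen and were not tested.

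**Figure D4:**
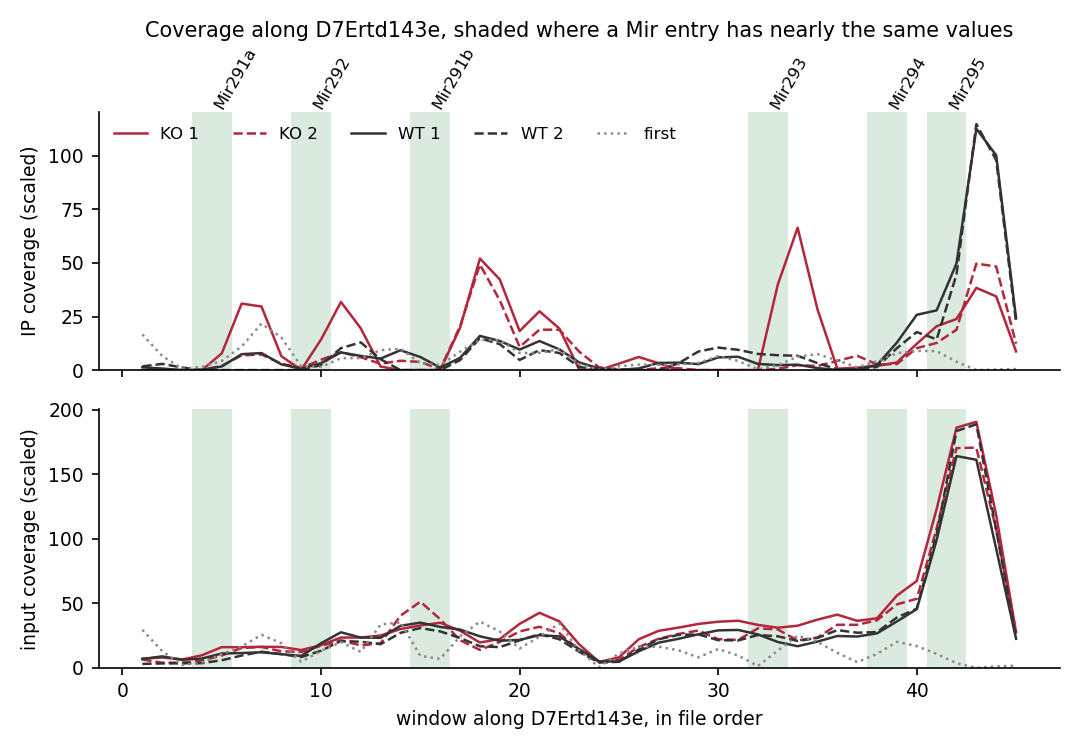
IP coverage (top) and input coverage (bottom) are drawn in each library along the 45 windows of D7Ertd143e, in file order, with green bands over the windows that match a Mir entry. Input is highest at windows 42 and 43, where the WT IPs exceed the KO IPs, and the first pair is near 0 there.

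Cluster members differed in level and in IP. Mir295 had inputs of 140 and 124 in KO inputs, against 117 and 126 in WT inputs, and IP coverage of 20.9 and 13.6 in KO IPs and 32.0 and 21.8 in WT IPs. Mir294, with the same seed, had IP coverage of 3.24 and 2.95 in KO IPs and 8.97 and 6.78 in WT IPs. Mir291b, whose seed differs from theirs in its last base, had inputs of 33.8 and 44.8 in KO inputs, against 33.4 and 29.6 in WT inputs, and IP coverage of 0 and 2.19 in KO IPs and 3.82 and 0 in WT IPs. These 3 stayed below the input in every pair. Mir293 had IP coverage of 25.2 and 0.5 in KO IPs and 2.46 and 7.14 in WT IPs, where KO replicate 1 alone was high. Mir292 had 8.39 and 3.27 in KO IPs and 2.18 and 1.58 in WT IPs, with inputs of 16.0 and 15.2 in KO and 15 and 11.2 in WT, and Mir291a had 1.59 and 0.572 in KO IPs and 0.445 and 0 in WT IPs, with inputs of 11.4 and 6.49 in KO and 8.16 and 4.28 in WT. Log2 ratios of the 6 ran from -4.10 in Mir291b to -1.76 in Mir292, all below the median gene, and the whole of D7Ertd143e lay at -1.42.

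Other clusters followed the same pattern of low IP coverage. The Rpl13a introns gave Snord32a (-2.83), Snord33 (-1.13), Snord34 (-2.00) and Snord35a (-2.34), guides of ribosomal RNA methylation, with Rpl13a itself at -0.16 as a log2 ratio. Snord33 had IP coverage of 11.7 and 26.3 in KO IPs and 24.7 and 31.7 in WT IPs and inputs of 49.4 and 49.4 in KO and 56.4 and 56.0 in WT. Snord32a had 5.22 and 16.1 in KO IPs and 9.39 and 8.82 in WT IPs, with inputs of 68.5 and 78.5 in KO and 81.6 and 74.4 in WT, and Snord34 had 30.0 and 63.9 in KO IPs and 36.1 and 39.5 in WT IPs, with the inputs given above. In Snord33 KO replicate 1 was the lowest of the 4 IPs, and no IP value reached an input value in any of the 3. Snord35a had IP coverage of 14.7 and 27.3 in KO IPs and 23.0 and 11.3 in WT IPs, with inputs of 95.2 and 91.6 in KO and 115 and 105 in WT, and Mir5121 had 151 and 274 in KO IPs and 161 and 208 in WT IPs, a log2 ratio of -0.92. Mir5121 had the highest IP coverage of these 5 entries in every KO and WT library.

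In Snhg12, which hosts members of both snoRNA classes, log2 ratios were -3.15 (Snora61), -3.52 (Snora16a), -2.59 (Snord99) and -2.25 (Snora44), against -1.74 in Snhg12. Snora61 had IP coverage of 0 and 4.46 in KO IPs and 2.20 and 0.526 in WT IPs and inputs of 18 and 23.9 in KO and 22.2 and 18 in WT. Snora16a had 0 and 0 in KO IPs and 0.316 and 0.00876 in WT IPs, with inputs of 9.41 and 12.8 in KO and 11.9 and 14.4 in WT. Snord99 had 1.72 and 0 in KO IPs and 4.29 and 3 in WT IPs, with inputs of 16.1 and 12.9 in KO and 16.4 and 21.8 in WT, while Snora44 had 2.69 and 1.60 in KO IPs and 0.800 and 0 in WT IPs, with inputs of 7.03 and 9.65 in KO and 11.9 and 9.16 in WT. In Snora44 both KO IP values were above both WT values, in Snord99 both were below, in Snora61 the genotypes overlapped, and in Snora16a no IP value passed 0.316.

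Rpl23a carried Snord4a, Snord42a and Snord42b. Snord4a had IP coverage of 0 and 0 in KO IPs and 2.13 and 0 in WT IPs, with inputs of 11.0 and 8.77 in KO and 9.35 and 9.41 in WT. Snord42a had 0.654 and 0.257 in KO IPs and 3.12 and 0 in WT IPs, with inputs of 9.09 and 4.87 in KO and 7.22 and 7.11 in WT, and Snord42b had 0 and 1.56 in KO IPs and 0.984 and 0.0131 in WT IPs, with inputs of 5.10 and 6.23 in KO and 3.98 and 6.08 in WT. Levels were low throughout, and log2 ratios were -2.91, -2.13 and -1.98 in this order, against -1.39 for Rpl23a.

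Mir92-1 and Mir363, whose mature forms share the seed AUUGCAC as printed above, were low in the IP as well. Mir92-1, which followed windows 2 and 3 of Mir17hg, had IP coverage of 0 and 0 in KO IPs and 1.75 and 0 in WT IPs, with inputs of 10.6 and 18.1 in KO and 11.2 and 13.2 in WT, a log2 ratio of -3.36. Mir363 had 0 and 0 in KO IPs and 2.22 and 1.92 in WT IPs, with inputs of 6.82 and 6.24 in KO and 6.59 and 4.46 in WT, a log2 ratio of -1.91. Both KO IPs of Mir363 were listed at 0 and both WT IPs were not.

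The KO and WT inputs were compared to see whether levels of these genes depended on genotype. Of the 100 members 8 rose and 12 fell in KO inputs, 20 in all, while 13.0% of all 11211 genes tested rose and 13.6% fell, 26.6% in either direction (limma on log2(coverage + 1), adjusted p under 0.05). The members' share was thus not above that of all genes. The risers were Snord64, Snord47, Snord96a, Mir1306, Mir294, Mir293 and the 2 equal Mir1906 entries, and no Snora member was among them (5 of 20 Snora members had an unadjusted p under 0.05 in either direction). The median change was 0.08 over members and 0.00 over all genes.

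**Figure D5:**
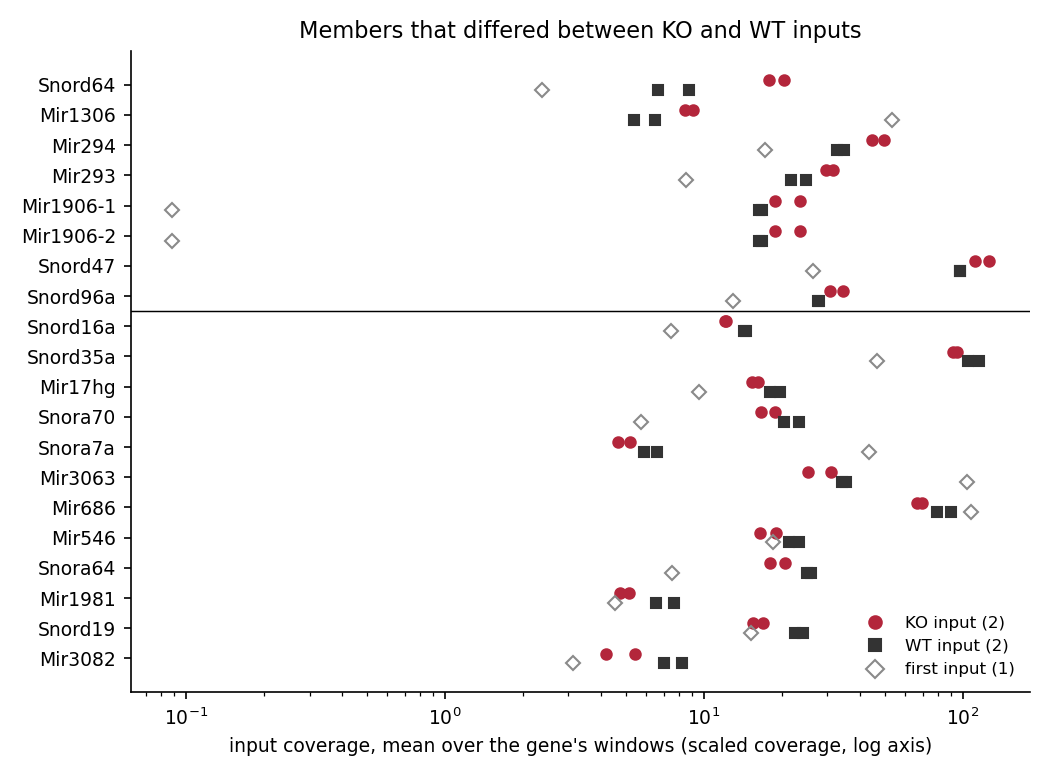
Input coverage (x, log axis) of the 20 members that differed between genotypes, with 2 KO inputs as red circles, 2 WT inputs as black squares and the first input as an open grey diamond, ordered by the log2 difference. The 8 members above the line are higher in KO, Snord64 most of all, and the first input often lies far outside both groups.

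Snord64, a box C/D snoRNA of the imprinted Snrpn region with no known ribosomal target, showed the largest difference. Its single window had 17.8 and 20.5 in KO inputs, against 8.80 and 6.65 in WT inputs, and 2.37 in the first input. The log2 difference was 1.22 (SE 0.11, limma adjusted p = 7.41e-05), and the groups did not overlap. RefSeq places Snord64 in Snhg14, of which the files carry several older names. D7Ertd715e, one of them, had 65.8 and 70.9 in KO inputs, against 21.0 and 23.0 in WT inputs, a log2 difference of 1.59 (adjusted p = 3.2e-06). Snrpn, the protein-coding gene of the region, had 44.5 and 41.3 in KO inputs, against 17.1 and 19.2 in WT inputs, a difference of 1.2 (adjusted p = 1.04e-05). C230091D08Rik, the other name, was at or under 0.00684 in all 4 inputs. Snord64, D7Ertd715e and Snrpn thus all rose, while IP coverage of Snord64 was 0 and 0 in KO IPs and 0.703 and 0 in WT IPs.

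Mir294 and Mir293 of the D7Ertd143e cluster rose too. Mir294 had 49.6 and 44.6 in KO inputs, against 32.8 and 34.7 in WT inputs, a log2 difference of 0.47 (SE 0.07, limma adjusted p = 0.00161), and Mir293 had 31.5 and 29.6 in KO inputs, against 21.8 and 24.7 in WT inputs, a difference of 0.38 (adjusted p = 0.00596). In both, every KO value was above every WT value. Of their neighbours, Mir291b (0.30, adjusted p = 0.0806), Mir295 (0.12, 0.306), Mir292 (0.25, 0.118) and Mir291a (0.47, 0.196) had positive differences that missed the threshold, as did D7Ertd143e itself (0.22, 0.0541). Mir290, under the minimum, had 4.82 and 7.08 in KO inputs and 3.21 and 3.21 in WT inputs. That Mir294 passed and Mir295 did not is no test of a difference between them.

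Mir1306 had 8.49 and 9.08 in KO inputs, against 6.49 and 5.35 in WT inputs, a log2 difference of 0.50 (SE 0.09, limma adjusted p = 0.00294), although Dgcr8 as a whole had 10.8 and 10.5 in KO inputs, against 10.4 and 11.1 in WT inputs and a difference of -0.01 (adjusted p = 0.924). The Mir1906 entries, of which Mir1906-1 lies in the imprinted noncoding Meg3, had 18.9 and 23.5 in KO inputs, against 16.3 and 16.8 in WT inputs, a difference of 0.33, and Meg3 had 8.27 and 7.27 in KO inputs, against 5.67 and 5.88 in WT inputs, a difference of 0.37 (adjusted p = 0.00713). Snord47, 1 of the snoRNAs of Gas5, had 126 and 111 in KO inputs, against 97.8 and 97.4 in WT inputs, a difference of 0.28, and Gas5 had 0.03 (adjusted p = 0.832). Snord96a, from the ribosomal scaffold gene Rack1 (Gnb2l1 in the files), had 30.8 and 34.5 in KO inputs, against 27.9 and 27.7 in WT inputs, a difference of 0.22 (adjusted p = 0.0425). Within each, the KO and WT values did not overlap.

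Among the members that fell, Mir3082, in the ubiquitin ligase gene Stub1, had 5.42 and 4.21 in KO inputs, against 7.03 and 8.21 in WT inputs, and fell by 0.57 on the log2 scale (SE 0.11, limma adjusted p = 0.00419). Snord19, a box C/D snoRNA of Gnl3, had 15.5 and 16.9 in KO inputs, against 24.2 and 22.4 in WT inputs, and fell by 0.50 (adjusted p = 0.00111). Gnl3, the nucleostemin gene, fell as well, by 0.24 (adjusted p = 0.0297), while Stub1 was at -0.09 (adjusted p = 0.33). Mir1981, with no host in the files, had 5.15 and 4.75 in KO inputs, against 6.53 and 7.69 in WT inputs, and fell by 0.44. Mir546, in Ctdsp2, had 18.9 and 16.4 in KO inputs, against 23.4 and 21.3 in WT inputs, and fell by 0.32, as Ctdsp2 did, by 0.33 (adjusted p = 0.017). Mir686, in the proteasome subunit gene Psmb5, had 69.8 and 66.3 in KO inputs, against 79.9 and 90.1 in WT inputs, and fell by 0.31, and Psmb5 by 0.34 (adjusted p = 0.00552).

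The 3 Snora members that fell came from ribosomal protein genes. Snora64, from Rps2, had 20.7 and 18 in KO inputs, against 26.0 and 25.0 in WT inputs, and fell by 0.38 (adjusted p = 0.00557). Snora70, from Rpl10, had 18.9 and 16.6 in KO inputs, against 20.5 and 23.3 in WT inputs, and Snora7a, from Rpl32, had 4.68 and 5.17 in KO inputs, against 6.61 and 5.89 in WT inputs, and both fell by 0.29. Host differences were -0.08 in Rps2, 0.10 in Rpl10 and 0.22 in Rpl32, none past the test (limma adjusted p = 0.481, 0.363 and 0.0766). Of the Snord members of ribosomal protein genes, Snord35a had 95.2 and 91.6 in KO inputs, against 115 and 105 in WT inputs, and Snord16a had 12.2 and 12.1 in KO inputs, against 14.5 and 14.3 in WT inputs, and both fell by 0.23. Mir3063, in Igf2bp1, had 31.1 and 25.3 in KO inputs, against 35.5 and 34.3 in WT inputs, and fell by 0.30. Mir17hg had 15.4 and 16.2 in KO inputs, against 17.9 and 19.8 in WT inputs, and fell by 0.24 (adjusted p = 0.0312), while Mir92-1, the last microRNA of its cluster, had 10.6 and 18.1 in KO inputs, against 11.2 and 13.2 in WT inputs, with no call (adjusted p = 0.494).

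Of the 16 members that differed and had a host with a fitted value, 11 had the sign of the host, and in 4 the host was called in the same direction. Replicates of members were less alike than those of other genes at the minimum. The median absolute log2 difference between input replicates was 0.23 in KO and 0.16 in WT for members. It was 0.08 in KO and 0.06 in WT for other genes at the minimum. In the 37 other genes of 1 to 3 windows it was 0.22 in KO, near the value of members, and 0.09 in WT. Without KO replicate 1 the count of members called was 42 (23 rose, 19 fell), while 1455 of all 11211 genes rose and 1689 fell, in a fit where the single KO input was assumed to vary like the WT inputs. With the median window of each gene it was 10, beside 549 rising and 683 falling of 10532 genes. That window equals the mean for members of 1 or 2 windows. Without a filter on coverage the count was 2 (Snord64 among them), beside 372 rising and 390 falling of 21812 genes. With the highest window it was 1, again Snord64, beside 203 rising and 83 falling of 14609 genes. The authors' deposited RPKM columns labelled KO input listed 56 and 50 members at 0, against 1 and 0 in the WT columns, and in them 7 of the 8 risers, all but Mir1306, had a negative difference.

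The ratio of IP to input was then compared between KO and WT, to ask whether the IP signal of a member depended on Mettl3. It was higher in KO for 1 of 6121 genes, 0.0163% of those tested, and lower in KO for none (0.0%), while 1103 genes and 15 of the 100 members had an unadjusted p under 0.05 (limma). The called gene was a member, Snord43, a box C/D snoRNA of the ribosomal protein gene Rpl3. Its single window had IP coverage of 10.1 and 10.6 in KO IPs and 0.714 and 0 in WT IPs, and 2.70 in the first IP. Inputs were 6.44 and 4.74 in KO and 7.89 and 5.82 in WT, and 8.26 in the first input. The KO IPs were thus above their inputs and the WT IPs below, with centred log2 ratios of 0.75 and 1.15 in KO pairs and -2.39 and -2.74 in WT pairs, a difference of 3.52 (SE 0.27, limma adjusted p = 0.00659). Rpl3 itself differed by 0.20 (adjusted p = 0.776). The call was lost without either WT replicate (adjusted p = 0.0782 and 0.092).

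The median difference over the 100 members was -0.07, against 0.02 over all genes. The lowest was that of Snord96a, with IP coverage of 1.51 and 4.12 in KO IPs and 11.3 and 14.8 in WT IPs, a difference of -2.04 (adjusted p = 0.085). Of the 5 members enriched in the IP, Mir5114 differed by -0.98 (adjusted p = 0.0684), Mir1306 by -0.97 (0.264), Mir703 by -0.13 (0.819), Mir877 by 0.11 (0.789) and Mir3063 by 0.30 (0.454). For Mir5114 both KO IPs lay under both WT IPs, and for Mir3063 they did not separate. Mir294, of the D7Ertd143e cluster, differed by -1.43 (adjusted p = 0.171), with both KO IPs under both WT IPs. Ratios of members varied more between replicates than those of other genes. Median absolute differences were 0.62 between the KO and 0.78 between the WT pairs, against 0.28 and 0.18 in other genes. In the 37 other genes of 1 to 3 windows they were 0.40 and 0.41. Without KO replicate 1 the test called 13 members, beside 321 genes higher and 376 lower in KO of all 6121. Without KO replicate 2 it called 18, beside 624 higher and 698 lower. The single KO pair left in these fits was assumed to vary like the WT pairs.

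Genes that make or process these RNAs were read from the same input test. Of 10 tested box C/D proteins and assembly factors, such as Fbl, the methyltransferase, none passed (1 had an unadjusted p under 0.05). Of 7 box H/ACA genes 3 rose and 1 fell. Nop10, a core protein of these particles, had 118 and 129 in KO inputs, against 79.2 and 85.7 in WT inputs, a log2 difference of 0.58 (limma adjusted p = 0.000607). Shq1 (0.32) and Naf1 (0.30), both assembly factors, rose, and Dkc1, the pseudouridine synthase, fell by 0.20. Nop10 is also the largest of these changes, with no overlap between KO and WT.

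None of 10 tested genes of the Microprocessor and of export passed, Drosha and Dgcr8 included (2 had an unadjusted p under 0.05). Of 8 tested Dicer and Argonaute genes, Prkra, a Dicer partner, rose by 0.29, and Ago1, which binds mature microRNAs, fell by 0.41, with 5.67 and 4.75 in KO inputs, against 7.22 and 7.21 in WT inputs. Tnrc6c, a partner of Argonaute in silencing, fell by 0.25. Lin28b, which blocks let-7 precursors, was 1 of 7 precursor control genes and the only one of them past the test, with a difference of 0.32. Of 57 host transcripts 8 rose and 4 fell, with D7Ertd715e, Snrpn, Snhg10 (0.55) and Rian (0.50), an imprinted noncoding host of snoRNAs, the largest. These counts stand beside 13.0% rising and 13.6% falling among all genes.

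The first input was set beside the others as a value only. For 11 members it was under 10% of the lowest KO or WT input: Mir682, Mir703, Mir684-1, Mir295, Mir692-1, Mir1982, Snord35b, Mir684-2, both Mir1906 entries and Mir3077. Mir682 had 5.82 in the first input, beside 983 and 994 in KO and 805 and 877 in WT, and Mir684-1 had 0, beside 270 and 266 in KO and 218 and 242 in WT. Mir295 had 9.82 there, and D7Ertd143e windows 42 and 43 had 3.60 and 0. For 14 members the first input was more than 2 times the highest KO or WT input. Mir1306 had 53.4, beside 8.49 and 9.08 in KO and 6.49 and 5.35 in WT, and Snora7a had 43.5, beside 4.68 and 5.17 in KO and 6.61 and 5.89 in WT. Members as a group took 0.0586% of coverage in the first input and 0.0271% in the first IP. Column headers of the first pair carry the word unique and those of the other pairs do not, and the part of read mapping in these gaps was not tested.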

How the data were processed

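RNA of J1 cells was sequenced as input and m6A IP, and the submitters' processing notes name TopHat 1.1.3 and mm9. The authors deposited coverage per exon window, a signal scaled in a way that no header or label states, together with a log2 winscore of IP over input, each divided by its gene median. Which column was the IP followed from this winscore. RPKM values per gene were also deposited by the authors; their columns labelled KO input follow the KO IP tracks, so they served only as an alternative. Values came in whole multiples of a step (tolerance 0.001), which gave relative depths, and read totals are unknown.

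Levels were log2(mean window coverage + 1), tested in genes with at least 1 in 2 or more of the 4 KO and WT inputs. Ratios were log2((IP + 1)/(input + 1)) less the library median, in genes with mean input of at least 5. Tests were limma 3.58.1 (R 4.3.3; lmFit, eBayes with trend, Benjamini-Hochberg over all genes, 0.05, n = 2 per genotype), tested on simulated data. Fold changes on this scale understate those of low genes. The first pair entered no test. Members and lists were chosen with earlier results of these data known. Values per library are given for called members, the 8 highest inputs, the 6 lowest and 6 highest ratios and clusters of 3 or more; Mir92-1, Mir363, Mir290 and Snord96a's ratio were added for context. Hosts came from RefSeq positions (GRCm38.p6, used only for names and neighbours), and for Mir5117 from its older name. Same-numbered replicates were not paired: their deviations correlated at -0.03 (input) and 0.04 (ratio). Figures used matplotlib 3.10.9 in Python 3.11.15 with numpy 2.4.6 and pandas 2.3.3.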

Additional observations from a re-analysis of the deposited data

Results flagged for a closer look

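Snord43 differed between KO and WT in IP over input by a test of that difference: 3.52 on the log2 scale, KO minus WT (limma adjusted p = 0.00659), with IP coverage of 10.1 and 10.6 in KO IPs and 0.714 and 0 in WT IPs. It rests on 1 window at an input coverage of 6.44 and 4.74 in KO and 7.89 and 5.82 in WT, and the part of this thin coverage in the difference was not tested.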

How the results depend on the processing

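For levels in KO against WT inputs, the count of 20 members became 2 with no filter on coverage (1 rose, 1 fell), 10 with the median window (4, 6), 1 with the highest window and 71 with the deposited RPKM columns (4, 67); leaving out 1 input gave 26 to 42, the most without KO replicate 1, and the replicate block gave 28 (13, 15). In the RPKM columns, whose KO values follow the IP tracks, values turned in Snord47 (-1.92), Mir294 (-4.81), Snord96a (-5.06), Mir293 (-4.77), Mir1906-1 (-0.042), Mir1906-2 (-0.042), Snord64 (-3.43), Mir295 (-1.99), Mir291b (-3.48), Mir292 (-2.70) and Mir291a (-2.35). Snord64 kept its call in every other setting run. For IP over input, the count of 96 stayed within 64 to 99, with 64 of 68 members at a minimum of 10, 76 with the median window (13 above, 63 below) and 99 with the replicate block. With the median window, ratios of members of 1 or 2 windows moved only by the subtracted library median. Mir877 turned to -0.019 at a minimum of 1 and to -1.52 with the highest window, and Mir703 to -1.21 there. Snord82, with no call, went to 0.27 at a minimum of 10, 1.61 with the median window, and -0.21 to 0.19 with 1 library pair left out. For KO against WT ratios, the count of 1 became 4 with a pseudocount of 5, 2 with the authors' scaling alone, 0 at a minimum of 1 (adjusted p of Snord43 0.0878), 2 at a minimum of 10, 2 with the median window, 0 with the highest window, and 0 to 18 with 1 library pair left out (13 without KO replicate 1, 18 without KO replicate 2). The replicate block gave 11 (6 higher, 5 lower in KO), but same-numbered libraries did not deviate together, so it is no evidence of pairing. Of the single-gene values for input levels, 218 kept direction and side of the threshold, 76 lost the call, 6 gained one and 11 turned. For IP over input 129 kept both, 5 lost the call, 1 gained one and 7 turned, and for Snord43 7 kept both and 4 lost the call. The causes were not tested. KO IPs and WT replicate 2 had under 10% of the first IP's depth, which limits the precision of ratios.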
